A study of Mus musculus with 8 samples.

Results

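The 9 genes described here encode integrin chains and selectin-binding adhesion receptors of blood leukocytes (Itgal, Itgam, Itgb2, Itga4, Itgb1, Itgb7, Itga6, Selplg and Cd44). They were taken as the rows of the deposited count table whose symbol equals one of these names, and 9 of 21878 rows were found, of which 9 passed the filter on low counts. Blood leukocytes leave the circulation by rolling on selectins, arresting through integrins and crawling through the vessel wall. An integrin is a pair of an alpha and a beta chain, and the beta chain is shared between several pairs. Itgal and Itgam encode the alpha chains of LFA-1 and Mac-1, which pair with the beta-2 chain Itgb2. Itga4 pairs with Itgb1 to form VLA-4 or with Itgb7 to form the gut-homing integrin, and Itga6 pairs with Itgb1 to form a laminin receptor that platelets also carry. Selplg encodes PSGL-1, the main selectin ligand of leukocytes, and Cd44 encodes the hyaluronan receptor.

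The study asked how acute restraint changes gene expression in circulating cells. Blood RNA libraries came from female C57BL/6 wild-type mice aged 6 to 8 weeks, with 4 samples per group (control and stress). Stress mice were held in a ventilated tube for 6 hours, and control littermates stayed in their cage, both without food or water. The labels do not say whether a sample is 1 mouse or a pool, and the p-values measure the spread between these samples.

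The libraries held 25978683 to 39014775 counts, of which haemoglobin genes took 51.9% to 75.5%. Counts outside the haemoglobin genes ranged from 11412556 to 18774818 in control libraries and from 6355715 to 11009882 in stress libraries, where stress replicate 3 had the fewest. Levels are given as CPM (read counts scaled for library size) after TMM scaling, which takes the typical gene as unchanged. The median log2 fold change of 11718 tested genes was -0.02 on this scale and -0.82 when libraries were scaled by total counts alone. In whole blood, fewer cells of a type and less RNA per cell cannot be told apart.

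In the GENCODE M21 annotation of GRCm38 (mm10), all 9 genes are protein-coding. Itgal lies on chromosome 7 from 127296260 to 127335138, and Itgam on the same chromosome from 128062640 to 128118491. Itgb2 lies on chromosome 10 from 77530252 to 77565708. Chromosome 2 holds Itga6 (71745616 to 71858416), Itga4 (79255426 to 79333123) and Cd44 (102811141 to 102901665). Itgb1 lies on chromosome 8 from 128685654 to 128733200, Itgb7 on chromosome 15 from 102215995 to 102231944 and Selplg on chromosome 5 from 113818536 to 113832644. Itgam shares 3450 exon bases (68.7% of its exon union) with the gene model Gm49368 on the same strand, and Itga4 shares 1124 (8.04%) with Cerkl on the opposite strand. Whether the counting kept, split or dropped reads from such shared exons is not given in the sources used here, so both counts are uncertain to that extent.

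RefSeq promoter sequences (GRCm38.p6) were at hand for 5 of the 9 genes. The 250 bases before the start are shown for 4 of them. They are shown because Itgb1 and Cd44 passed the test below, Itga4 stood lower in every stress sample on the TMM scale, and Itgam is the myeloid alpha chain. Capitals mark matches on either strand to GAGGAA (a PU.1-type ETS core), GGGCGG (the Sp1 GC box), TGTGGT (the RUNX core) or AGAACA (the core of a glucocorticoid response element).
Itgb1, chr8:128685404-128685653, plus strand: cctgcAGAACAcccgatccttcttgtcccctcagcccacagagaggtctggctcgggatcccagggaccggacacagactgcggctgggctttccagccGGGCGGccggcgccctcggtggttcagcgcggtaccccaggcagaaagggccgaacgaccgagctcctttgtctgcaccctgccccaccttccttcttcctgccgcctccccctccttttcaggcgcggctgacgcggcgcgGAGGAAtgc
Cd44, chr2:102901666-102901915, minus strand: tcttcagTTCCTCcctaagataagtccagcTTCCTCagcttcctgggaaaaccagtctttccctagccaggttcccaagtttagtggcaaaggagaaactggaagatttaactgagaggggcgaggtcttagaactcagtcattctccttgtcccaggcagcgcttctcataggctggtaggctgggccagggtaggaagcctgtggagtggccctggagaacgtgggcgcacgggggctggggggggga
Itgam, chr7:128062390-128062639, plus strand: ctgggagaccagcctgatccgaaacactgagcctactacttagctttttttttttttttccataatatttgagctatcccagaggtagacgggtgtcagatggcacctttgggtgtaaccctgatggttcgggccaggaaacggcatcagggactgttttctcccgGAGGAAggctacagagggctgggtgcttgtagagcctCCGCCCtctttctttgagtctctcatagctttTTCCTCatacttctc
Itga4, chr2:79255176-79255425, plus strand: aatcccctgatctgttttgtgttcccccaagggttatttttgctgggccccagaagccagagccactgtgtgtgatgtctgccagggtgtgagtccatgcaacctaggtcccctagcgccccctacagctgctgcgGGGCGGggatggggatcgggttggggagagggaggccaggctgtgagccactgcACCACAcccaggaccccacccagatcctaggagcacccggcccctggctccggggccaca
Among 32851 RefSeq promoter windows of the same length, 23.3% hold GAGGAA, 32.7% hold GGGCGG, 14% hold TGTGGT and 16.1% hold AGAACA. GC boxes occur in the windows of Itgb1, Itgam and Itga4. AGAACA occurs in the window of Itgb1 and also in that of Itgb7, which is not shown. The full palindromic glucocorticoid response element, which contains AGAACA, is in 3 of the 32851 windows. These matches describe letters and not bound sites.

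On the TMM scale 5 of the 9 genes rose in the stress group (Itgb2, Itgb1, Itga6, Selplg and Cd44) and 0 fell at an adjusted p below 0.05 with edgeR, where 10.4% of all tested genes rose and 3.69% fell, while on total counts alone Itgb2, Itgb1 and Selplg had negative fold changes. DESeq2 gave 6 and 0, against 1524 and 596 of the 15929 genes it gave a p-value. The unadjusted p of edgeR was under 0.05 for 6 higher and for 1 lower gene (Itga4), against 2129 and 1524 of all 11718 tested genes. The thresholds of the study (absolute log2 fold change above 1 and adjusted p below 0.01) were passed by 0 of the 9, and by 1.69% of all genes as higher and 0.0171% as lower. The median log2 fold change of the 9 was 0.45. On total counts alone 0 of the 9 rose and 2 fell (Itga4 and Itgb7), against 0.444% and 49.6% of all genes, and the median of the 9 was -0.33. The groups did not overlap on that scale for the same 2 genes, both lower, against 23.5% of all genes lower and 0.247% higher. On that scale as on the TMM scale, 7 of the 9 lay above the median of all genes and 2 below it. Rescaling moves all genes of a library together, so the second count adds little to the first. Without control replicate 2, 2 of the 9 passed as higher, Itga6 and Cd44, against 617 of the 11531 genes tested in that fit.

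**Figure D1:**
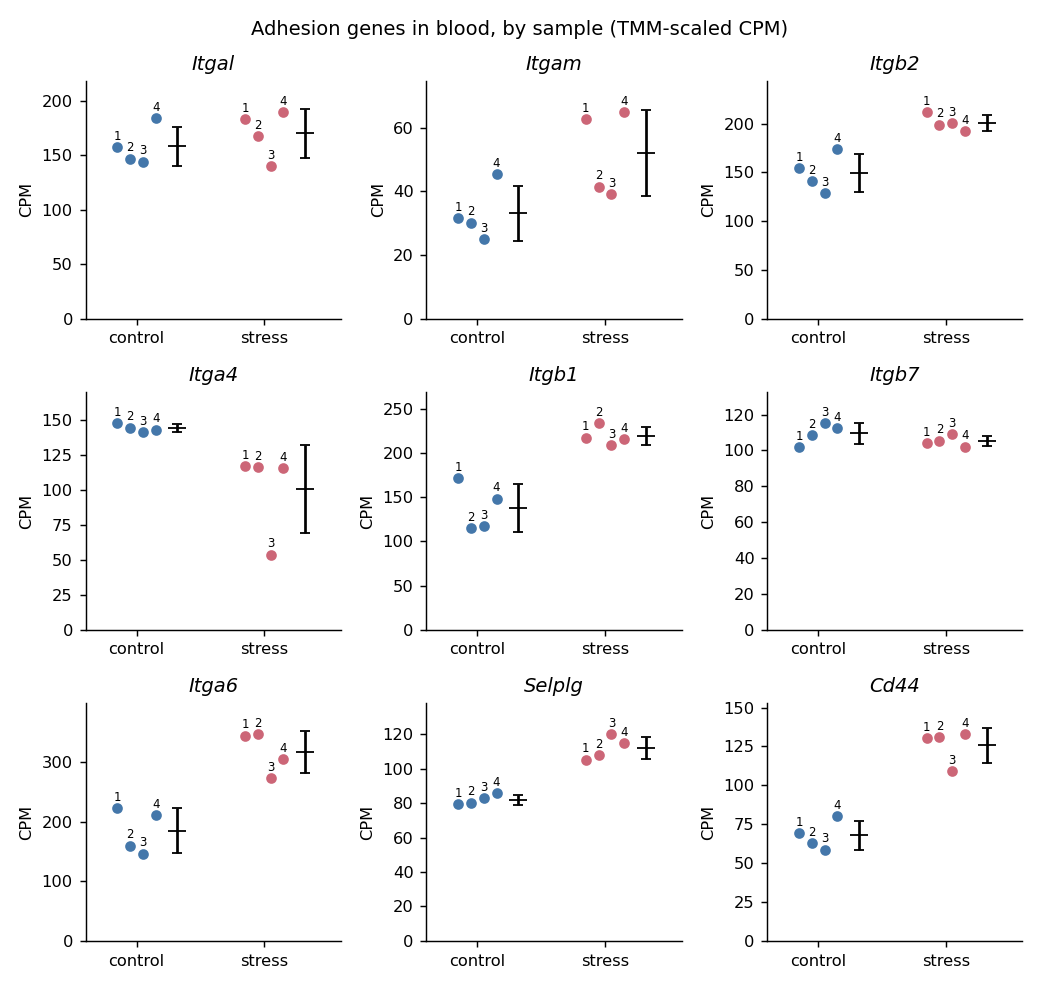
CPM on the TMM scale (vertical axes, each starting at 0) of the 9 adhesion genes in 4 control and 4 stress samples, numbered by replicate, with the mean and SD beside the points. The groups do not overlap for Itgb2, Itgb1, Itga6, Selplg, Cd44 and Itga4, and stress replicate 3 lies far below the other stress samples for Itga4.

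Cd44, through which leukocytes bind hyaluronan and endothelial selectins, had the largest change of the 9 genes on the TMM scale. On total counts alone Itga4, Itgb7, Itgal, Selplg and Itgb2 had larger changes, all negative. Cd44 was at 69.46, 62.64, 58.75 and 80.31 CPM in the control samples and at 130.2, 131.1, 109.1 and 132.8 CPM in the stress samples. The lowest stress value exceeded the highest control value, an order that 11.1% of all tested genes had. Group means were 67.8 ± 9.45 CPM and 125.8 ± 11.2 CPM (SD, n = 4 each), and the log2 fold change was 0.89 (SE 0.13, adjusted p = 0.00109 with edgeR's quasi-likelihood test). It exceeded that of 93.1% of all tested genes, and Cd44 passed in 8 of 8 fits that left out a sample. On total counts alone Cd44 was not separable from no change (log2 fold change 0.16, adjusted p = 0.667, edgeR). It lay 0.98 above the median of all genes on that scale, against 0.92 with TMM. Rescaling moves all genes of a library together, so these distances are close by construction.

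Itga6 and Itgb1, the chains of the laminin receptor, rose side by side. Itga6 was at 222.8, 159.7, 146.4 and 210.2 CPM in the control samples and at 344.1, 346.3, 272.3 and 305.2 CPM in the stress samples. Its log2 fold change was 0.78 (SE 0.17, adjusted p = 0.00902 by edgeR) with TMM and 0.05 on total counts alone. Itgb1, the beta chain that Itga4 and Itga6 can both use, was at 171.7, 115.1, 117.4 and 148.3 CPM in the control samples and at 217.2, 233.6, 209.2 and 215.4 CPM in the stress samples. Its log2 fold change was 0.66 (SE 0.15, adjusted p = 0.0112, same test) with TMM and turned to -0.084 on total counts alone. Among the control samples, replicates 1 and 4 were the highest for both genes, and the groups did not overlap for either. Without control replicate 2 Itgb1 no longer passed (adjusted p = 0.0543).

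The beta-2 integrins moved unequally. Itgb2, the chain common to LFA-1 and Mac-1, was at 154.5, 140.7, 128.8 and 173.5 CPM in the control samples and at 211.8, 199.0, 200.2 and 191.9 CPM in the stress samples. The groups did not overlap, and the log2 fold change was 0.43 (SE 0.13, adjusted p = 0.0444 by edgeR), against -0.33 on total counts alone. This call was narrow, since it passed in 3 of the 8 fits that left out a sample (highest adjusted p 0.142, without control replicate 3) and not without the filter on low counts (adjusted p = 0.0524, edgeR).
Itgam, the Mac-1 alpha chain of neutrophils and monocytes, was at 31.56, 30.24, 25.10 and 45.56 CPM in the control samples and at 62.65, 41.55, 39.16 and 65.00 CPM in the stress samples. Control replicate 4 lay above stress replicates 2 and 3, so the groups overlapped. Itgam had a log2 fold change of 0.66 (SE 0.21) and just missed the threshold (adjusted p = 0.0536 with edgeR, 0.0234 with DESeq2), and on total counts alone its log2 fold change was 5.4e-05.
Itgal, the LFA-1 alpha chain of lymphocytes and other leukocytes, was at 157.5, 146.8, 144.1 and 183.9 CPM in the control samples and at 183.4, 167.3, 139.7 and 189.6 CPM in the stress samples. The ranges overlapped over most of their length, with a log2 fold change of 0.11 (95% interval -0.19 to 0.41, adjusted p = 0.647 by edgeR), against -0.62 on total counts alone (adjusted p = 0.0617).

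Selplg, the selectin ligand on which leukocytes roll, was even among the control samples, at 79.45, 80.36, 82.72 and 85.92 CPM. The stress samples were at 105.3, 108.1, 120.0 and 114.7 CPM, all above them. The log2 fold change was 0.45 (SE 0.11, adjusted p = 0.0141 by edgeR) and turned to -0.34 on total counts alone. Without control replicate 2 Selplg did not pass (adjusted p = 0.0608).

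The alpha-4 and beta-7 chains, which direct lymphocytes to inflamed tissue and to the gut, did not pass the test on the TMM scale. Itga4 was at 147.8, 144.6, 141.5 and 143.2 CPM in the control samples and at 116.9, 116.3, 53.81 and 115.5 CPM in the stress samples. The highest stress value was below the lowest control value, an order that 9.87% of all tested genes had, and stress replicate 3 stood far below the other stress samples. The log2 fold change of Itga4 was -0.52 (SE 0.20, adjusted p = 0.103 by edgeR) with this sample and -0.30 (adjusted p = 0.0552) without it. Itga4 fell on total counts alone (log2 fold change -1.23, adjusted p = 0.00614), which is 0.41 below the median of all genes on that scale.
Itgb7 was at 101.8, 108.4, 115.2 and 112.4 CPM in the control samples and at 104.1, 105.5, 109.3 and 102.1 CPM in the stress samples. The ranges overlapped, with a log2 fold change of -0.06 (95% interval -0.28 to 0.17, adjusted p = 0.757, same test). On total counts alone Itgb7 fell by 0.86 on the log2 scale (adjusted p = 0.0204), close to the median of all genes on that scale.

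**Figure D2:**
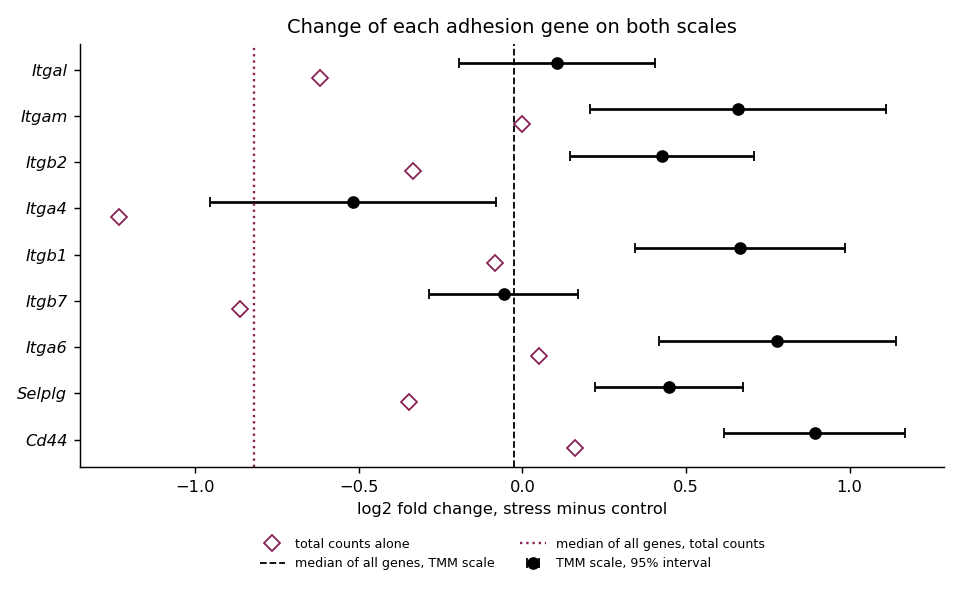
Log2 fold change (horizontal axis, stress minus control) of each adhesion gene on the TMM scale with its 95% interval (circles and bars) and on total counts alone (diamonds), with the median of all tested genes on each scale as a vertical line. The diamonds are shifted to the left about as far as the median of all genes, from -0.02 to -0.82, and the order of the genes stays close to the same.

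A ratio of 2 genes within a sample does not depend on how libraries are scaled, so 8 ratios between chains that pair or compete were compared with a two-sided exact permutation test. The smallest p that 4 samples against 4 allow is 0.0286, and values were adjusted over the 8 ratios. The groups did not overlap for 5 ratios, each at this smallest p, which became 0.0457 after adjustment. Ratios that share a gene are not independent, so these 5 are not separate results. How often ratios of other gene pairs separate the groups was not counted. Of single tested genes on the TMM scale, 11.1% were higher and 9.87% lower in every stress sample.
The log2 ratio of Itgam to Itgal was -2.318, -2.279, -2.521 and -2.013 in the control samples and -1.549, -2.009, -1.834 and -1.544 in the stress samples, higher by 0.55 on average. The Mac-1 alpha chain stood higher against the LFA-1 alpha chain in 4 of 4 stress samples, although control replicate 4 and stress replicate 2 lay close together. Itgal fell against its partner Itgb2 by 0.33 on the log2 scale, from a control mean of 0.08 ± 0.06 to a stress mean of -0.25 ± 0.21 (SD, n = 4 per group). For Itgam against Itgb2 the groups overlapped (difference 0.22, exact permutation test, adjusted p = 0.314), and the difference was 0.14 without stress replicate 1, 0.34 without stress replicate 3 and 0.076 without stress replicate 4.
The log2 ratio of Itga4 to Itgb1, the VLA-4 pair, had the largest difference of the 8. It was -0.217, 0.329, 0.269 and -0.051 in the control samples and -0.894, -1.006, -1.958 and -0.898 in the stress samples, a difference of -1.27 that was -1.02 without stress replicate 3. Itgb7 fell against Itgb1 by 0.74 on the log2 scale. Itga4 fell against Itgb7 by 0.53, and the difference was -0.24 without stress replicate 3.
The ratio of Itga6 to Itgb1 was similar in both groups, with means of 0.42 ± 0.09 and 0.53 ± 0.12 on the log2 scale (SD, n = 4 per group, exact permutation test, adjusted p = 0.196). Their difference of 0.11 was 0.066 without stress replicate 1. Selplg against Cd44 differed by -0.45 with overlapping groups (exact permutation test, adjusted p = 0.0762).

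**Figure D3:**
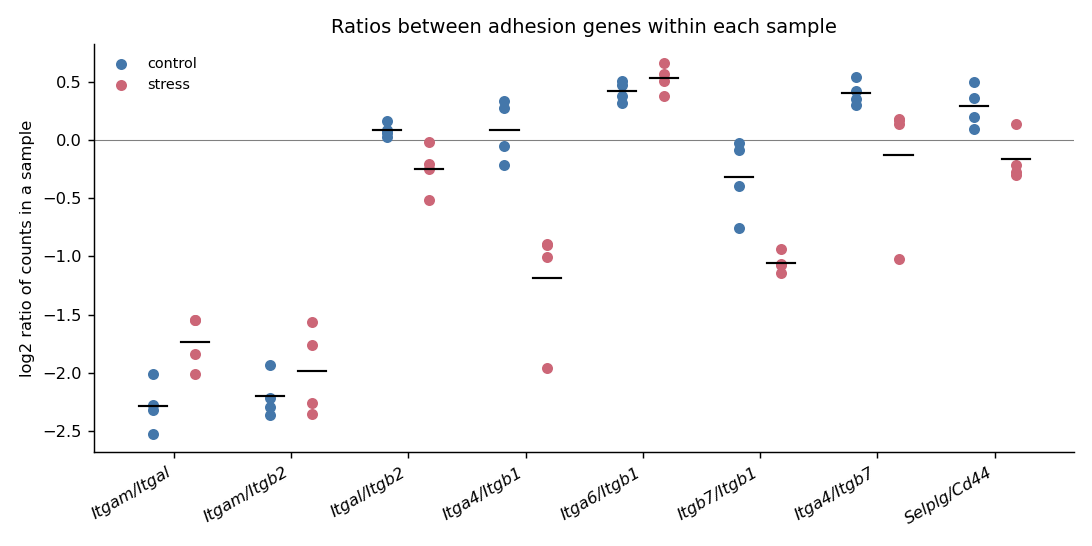
Log2 ratio of the counts of 2 adhesion genes in a sample (vertical axis) for 8 ratios, with 4 control points (blue), 4 stress points (red) and a bar at each mean. The stress points lie above the control points for Itgam/Itgal and below them for Itgal/Itgb2, Itga4/Itgb1, Itgb7/Itgb1 and Itga4/Itgb7, and the groups overlap for the other 3 ratios.

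Compared per length, as CPM on the TMM scale per kilobase of exon union, Itgb2 had the highest level of the 9 genes in both groups by this length, though not in the stress group by the longest transcript, at 48.9 ± 6.29 in control samples and 65.8 ± 2.70 under stress (SD, n = 4 each). In the control group Itgb7 followed at 39.5 ± 2.10 and Itgb1 at 33.9 ± 6.62, whose ranges overlapped. Itgal (24.1 ± 2.77), Itga6 (20.5 ± 4.14) and Selplg (19.2 ± 0.676) came next with overlapping neighbours. The last were Itga4 (10.3 ± 0.191), Cd44 (8.67 to 11.85 over the samples) and Itgam (6.59 ± 1.74), again overlapping from neighbour to neighbour. The places of Itgam and Itga4 also carry the uncertainty from the exons they share with other genes.
In the stress group Itgb1 stood second at 53.6 ± 2.55, apart from Itgb7 below it at 38.0 ± 1.10. Itga6, at 35.1 ± 3.91, stood apart from Selplg (26.2 ± 1.55) and above Itgal (25.9 ± 3.39), below which it had been in the control group. Itga4 came last at 7.20 ± 2.23, with a range that overlapped that of Itgam. Order between genes depends on the length used: with the longest transcript in place of the exon union, Itga6 stood at 42.9 in the control group, behind Itgb2 at 50.3, and at 73.5 under stress, ahead of Itgb2 at 67.6. By that length Selplg stood at 35.5 in the control group, above Itgal at 30.3. Under stress it stood at 48.4, above Itgb7 at 39.2.

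Beyond the 9 genes, 77 genes of adhesion were grouped by role into 6 lists, of which 67 were tested. Of these, 18 (26.9%) rose and 0 fell with edgeR at an adjusted p below 0.05, against 10.4% and 3.69% of all tested genes. By the unadjusted p of edgeR under 0.05, 2 were lower, against 1524 of all 11718 tested genes. DESeq2 gave 26 and 0, against 1524 and 596 of 15929 genes. The median log2 fold change of the 67 was 0.27. On total counts alone 0 rose and 19 fell, where 49.6% of all genes fell. Without control replicate 2, 11 rose, against 617 of the 11531 genes tested in that fit.
Of 14 tested integrin subunits outside the 9 genes, 5 rose, with a median of 0.69. Itgb5 had a log2 fold change of 0.97 (SE 0.17), Itgb3 of 1.00 (SE 0.19) and Itga5, the fibronectin receptor chain, of 0.92 (SE 0.18). Itga2b, the platelet fibrinogen receptor chain that pairs with Itgb3, was named after its values were seen, as was Itgb4. Itga2b had a log2 fold change of 0.99 (SE 0.20), with means of 497.4 CPM in control and 990.8 CPM in stress samples. Itgb4 had one of 1.13 (SE 0.30) at low means of 1.12 and 2.49 CPM, and its groups overlapped. Itgax and Itgae, carried by dendritic cells and intraepithelial lymphocytes, had log2 fold changes of -0.41 and -0.30 and did not pass (adjusted p = 0.167 and 0.131, edgeR), and they were also named after their values were seen.
Among 12 genes that switch integrins on from inside the cell, 4 rose, with a median of 0.32. The adaptor Skap2 had a log2 fold change of 0.89, the kindlin Fermt3 of 0.71 and the small GTPase Rap1b of 0.65. Of 6 genes that restrain integrins, 0 rose and 0 fell with edgeR (by the unadjusted p under 0.05, 2 were higher and 0 lower, and DESeq2 gave 1 and 0), with a median of 0.23. Of 12 genes that signal from bound integrins, 3 rose, namely Zyx (0.84), Vcl (0.77) and Ilk (0.73), which link integrins to actin, with a median of 0.30 over the list.
Of 14 genes for selectins and for the sugars and sulphates of their ligands, 3 rose, with a median of 0.22. These were Selp, the selectin of platelets and endothelium (log2 fold change 0.90), the sialyltransferase St3gal4 (0.66) and Tpst2 (0.43), a tyrosine sulphotransferase. Of 9 tested counter-receptors, 3 rose, F11r (1.13), Esam (1.10) and Pecam1 (0.47), with a median of 0.35.

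Markers of blood cell types were compared between the groups in the same way, and they differed in direction. The counts of markers that rose or fell on the TMM scale stand against 10.4% of all tested genes that rose and 3.69% that fell. All 12 platelet markers rose (median log2 fold change 0.98), and their summed level was 1210 to 1764 CPM in the control samples and 2670 to 3196 CPM in the stress samples. Of 11 tested neutrophil markers 8 rose (sum 191.8 to 378.4 against 589.1 to 872.6 CPM), and of 8 classical monocyte markers 7 rose (sum 329.4 to 455.0 against 699.9 to 1218 CPM). Of 10 B cell markers 7 fell, with sums of 1101 to 1347 CPM in the control samples and 747.0 to 978.4 CPM in the stress samples. Of 12 T cell markers 0 passed with edgeR (0 at an unadjusted p under 0.05, 0 with DESeq2), and their sums overlapped, from 682.0 to 733.9 and from 581.6 to 792.2 CPM. On total counts alone 0 of the 12 platelet markers and 4 each of the neutrophil and monocyte markers rose, while 10 B cell and 9 T cell markers fell, where 0.444% of all genes rose and 49.6% fell. On that scale the platelet sum overlapped between the groups, as did the neutrophil and monocyte sums, while the B cell and T cell sums were lower in every stress sample. Each of these lists had its markers above 0 in some sample, and the part of cell numbers in the changes of the adhesion genes was not tested.
Of 9 NK cell markers 0 rose and 1 fell, of 6 non-classical monocyte markers 0 rose and 2 fell, and the sums of both lists overlapped, while on total counts alone 8 and 5 fell and both sums were lower in every stress sample. Of 8 tested red cell markers 1 rose with edgeR, against 10.4% of all tested genes, although all 8 had log2 fold changes above 0 (median 1.05). By the unadjusted p under 0.05, 3 of the 8 were higher, DESeq2 gave 4 higher, and on total counts alone 2 rose. The red cell sums overlapped between the groups. Of 2 tested eosinophil and basophil markers 1 rose, and of 3 tested endothelial markers 2 rose. The summed endothelial level was at most 8.35 CPM in any sample.

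**Figure D4:**
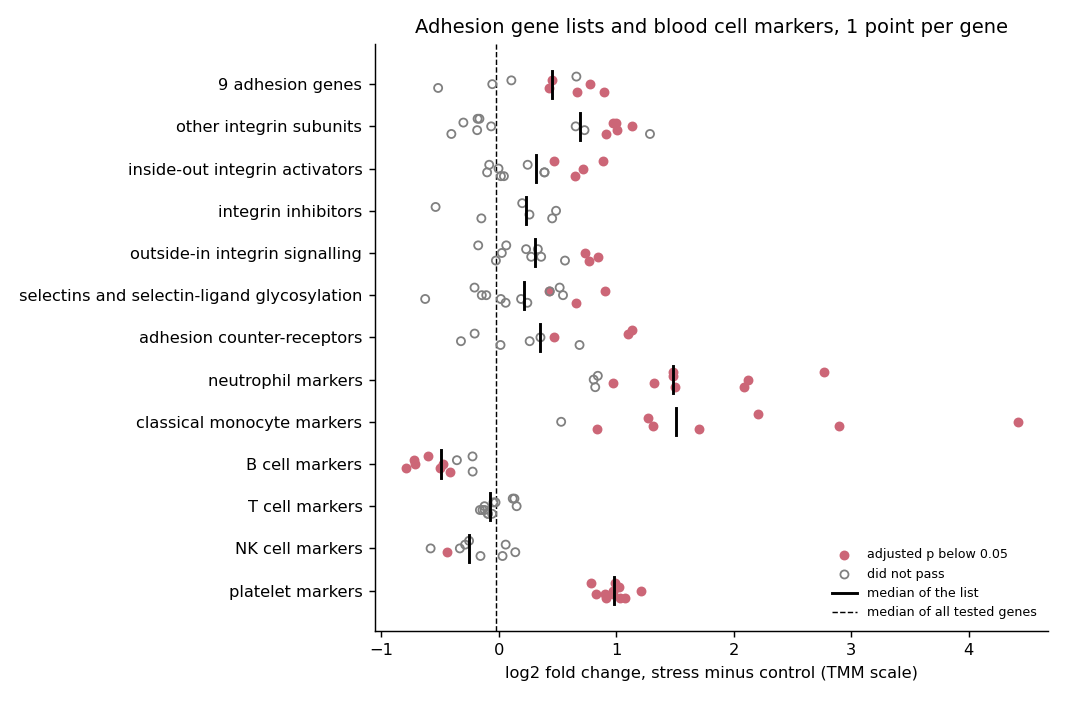
Log2 fold change on the TMM scale (horizontal axis) of each tested gene of the 9 adhesion genes, of 6 lists of adhesion genes and of 6 lists of blood cell markers, with filled points for an adjusted p below 0.05, bars at the list medians and a dashed line at the median of all tested genes (-0.02). The platelet, neutrophil and classical monocyte markers lie to the right of 0 and the B cell markers to the left, with the adhesion genes spread between them.

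Among themselves, the 9 genes were compared by the SD over the 8 samples of the log2 ratio of their counts, which is small when 2 genes keep a constant proportion. Itga6 and Itgb1 were the closest pair, with an SD of 0.113, followed by Itga6 with Cd44 (0.138) and Itgb2 with Selplg (0.139). Among 7150 tested genes, however, Itga6 ranked 31 in closeness to Itgb1, and Itgb1 ranked 32 in closeness to Itga6. Likewise Itga6 ranked 27 in closeness to Cd44, Selplg 171 to Itgb2 and Itgb2 172 to Selplg. The 8 samples span both groups, so a like fold change alone brings 2 genes closer. Itga4 and Cd44 were the farthest apart, with an SD of 0.851, and Itga4 had no other member of the 9 closer than Itgal (0.458). Itgal ranked 2801 in closeness to Itga4, where the median SD over the 7150 genes was 0.506.
The same measure over 7150 other tested genes named those most like each gene. For Itgb1 they were Wdr13 (0.0435), Cd226 (0.0475) and Arhgap18 (0.0549), and for Itga6 they were Clic4 (0.0485), Cnst (0.0576) and Hacd4 (0.0616). For Cd44 they were Gp1ba (0.096), a chain of the platelet receptor for von Willebrand factor and 1 of the 12 platelet markers, Tspan9 (0.0985) and Clic4 (0.0992). For Itgb2 they were Actn4 (0.0548), Mink1 (0.0558) and Nprl3 (0.0572), and for Selplg they were Rhog (0.0625), Por (0.0666) and Mtmr14 (0.0687).
Itga4 was closest to Srcap (0.0572), Piezo1 (0.0699) and Utrn (0.0736), with log2 fold changes of -0.54, -0.49 and -0.49. Itgal was closest to Ppp1r13b (0.0683), Ipmk (0.0763) and Prkcd (0.0788), and Itgb7 to Rgs14 (0.0311), Srsf4 (0.04) and Nelfa (0.0416). Itgam had the least close neighbours of the 9, at 0.126 for Nfam1, 0.129 for Fam129a and 0.15 for Itpripl2.

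**Figure D5:**
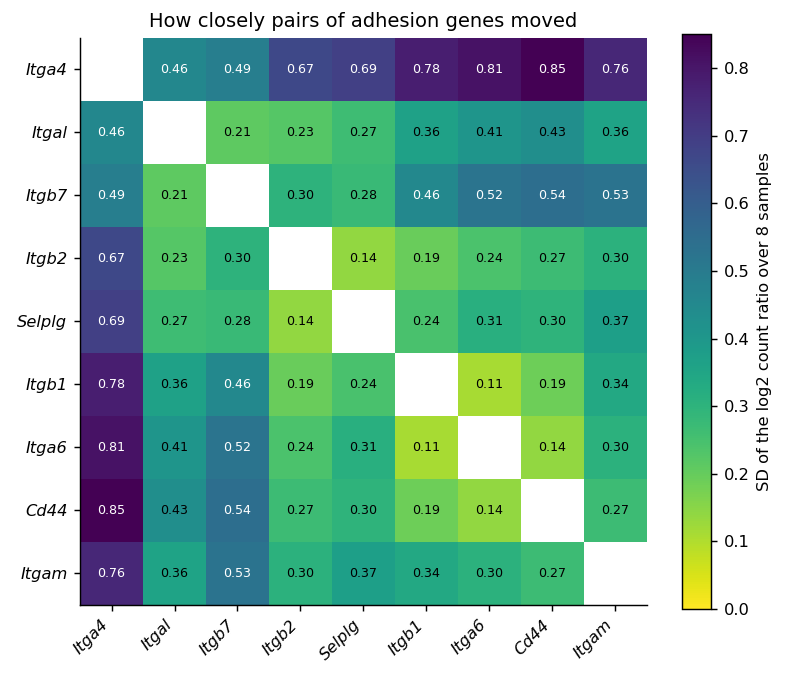
SD over the 8 samples of the log2 count ratio for every pair of the 9 adhesion genes (colour scale and printed values, darker for pairs that moved apart). The lowest value is that of Itga6 with Itgb1 (0.113), and the row of Itga4 runs from 0.458 with Itgal to 0.851 with Cd44.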

How the data were processed

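Peripheral blood RNA of 4 control and 4 stress samples was analysed from a table of raw read counts per gene symbol, deposited by the authors without normalization. Per the labels, processing used HISAT2, featureCounts and mm10. Versions, annotation and strand setting are not given in the sources used here. Total counts per sample lay between 25978683 and 39014775.

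The filter kept 11718 genes that reached 10 counts in 4 or more samples, and these were tested in R 4.3.3 with edgeR 4.0.16, TMM and the robust quasi-likelihood test, two-sided, with Benjamini-Hochberg adjustment. Passing was an adjusted p below 0.05. On simulated data made from this comparison, 141 of 193 genes given a log2 change of 1 were recovered among 11559 tested, with 8 false calls. Alternatives were DESeq2 1.42.0, other normalizations and filters, a fit that was not robust, a replicate block, the thresholds of the study and leaving out each sample. Scaling by counts outside the haemoglobin genes was chosen after seeing the data. A count of 0.5 was added before ratios. The 9 genes and all lists were chosen with earlier results of these data known.

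Genes were named by rule: the 9 genes, up to 3 passing genes per adhesion list and direction with the smallest p, and the 3 genes closest to each of the 9 with a mean of at least 5 CPM. No 2 samples of a group agreed within sampling noise.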

Additional observations from a re-analysis of the deposited data

Results flagged for a closer look

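In 34 sets of 4 samples (18 of gene levels and 16 of ratios), a sample was marked where its gap to the nearest of the others exceeded 0.829 of the range, which chance gives in about 5% of sets. All 4 marked values were those of stress replicate 3, the library with the fewest counts outside the haemoglobin genes. Itga4 was at 53.81 CPM there, against 115.5 to 116.9 CPM in the other stress samples. Cd44 was at 109.1 CPM, against 130.2 to 132.8 CPM. The log2 ratio of Itga4 to Itgb1 was -1.958, against -1.006 to -0.894, and that of Itga4 to Itgb7 was -1.022, against 0.139 to 0.178.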

How the results depend on the processing

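Scaling decided the direction of most calls. On total counts alone, 0 of the 9 genes passed as higher and 2 as lower, with 52 and 5811 of all genes and 0 and 19 of the wider adhesion lists, and Itgal (-0.62), Itgb2 (-0.33), Itgb1 (-0.084) and Selplg (-0.34) reversed. On total counts outside the haemoglobin genes, where the median of all genes was -0.43, the numbers were 1 and 2, 549 and 3945, and 8 and 13, and Itgal reversed (-0.27). Cd44 was the 1 gene still higher (log2 fold change 0.52, adjusted p = 0.026 with edgeR), and Itga4 and Itgb7 were the 2 lower. Itga6 (0.41), Itgb1 (0.28), Selplg (0.043) and Itgb2 (0.037) lost the call on that scale. At the thresholds of the study, 0 of the 9 genes, 198 higher and 2 lower of all genes and 3 of the wider lists passed. Leaving out a sample gave 2 to 6 of the 9 genes higher and 0 lower, 617 to 1425 and 81 to 727 of all genes, and 11 to 23 and 0 to 1 of the wider lists, with the fewest higher genes without control replicate 2. The fold changes of the 9 genes kept their sign in 72 of 72 such fits, and 7 lost and 2 gained the call. The differences of the ratios kept their sign in 72 of 72 alternatives, though that of Itga4 to Itgb7 shrank from -0.53 to -0.24 without stress replicate 3.

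Samples that share a replicate number did not deviate together (correlations from -0.16 to 0.0621), so the numbers were not taken as pairs. With the replicate block, 5 of the 9 genes passed as higher, Itgam among them (adjusted p = 0.00928, edgeR) and Itgb2 not (0.0946), and 920 and 240 of all genes passed as higher and lower. The cause of these shifts was not tested.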

Other observations

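Of 20 integrin subunits outside the 9 genes, 6 were too scarce to test. Itga9, Itga11, Itgad, Itgb2l and Itgb8 had at most 18 counts in any sample, and Itgb6 had 0 counts in all samples. Of the 13 counter-receptors, 4 were not tested: Vcam1 had at most 14 counts in any sample, Icam4 at most 16, Jam3 at most 8, and Madcam1, the ligand of the gut-homing integrin, had 0.

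The 9 genes together took 0.329% to 0.354% of the counts outside the haemoglobin genes in the control samples and 0.26% to 0.406% in the stress samples, with the lowest share in stress replicate 3 and the highest in stress replicate 4.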
